A study of Mus musculus with 6 samples.

Results

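The genes of MHC class II antigen presentation were followed in the ear skin of 21-day-old mice. They were chosen by symbol: 10 genes of the 18482 in the table, namely the chains H2-Aa, H2-Ab1 and H2-Eb1, the invariant chain Cd74, the peptide exchange subunits H2-DMa, H2-DMb1 and H2-DMb2, the DM inhibitor subunits H2-Oa and H2-Ob, and the transactivator Ciita. The lecko group (genotype label lecko, title Vegfr2lecko) was made to lack Kdr, which encodes VEGFR2, a receptor for vascular endothelial growth factors, in lymphatic endothelium. The control group, labelled Control, came from littermates. Both groups were treated with tamoxifen, the inducer of the deletion, and each held 3 libraries of polyadenylated RNA from whole ear skin. The labels of these samples name neither strain nor Cre driver. The deletion was aimed at lymphatic vessels and not at the leukocytes that carry most class II protein in skin.

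Class II molecules are dimers of an alpha and a beta chain that show peptides from endocytosed proteins to CD4+ T cells. The invariant chain escorts new dimers and plugs their groove, the DM dimer exchanges its remnant for peptide, and the DO dimer restrains DM. CIITA is the master switch of this gene set: it binds no DNA itself but docks on factors at the X and Y boxes of each class II promoter, RFX on the X1 part of the X box and NF-Y on the Y box. In skin, Langerhans cells, dermal dendritic cells and macrophages carry most class II.

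The X and Y boxes give these genes a shared promoter layout, so the stretches that hold them are shown first. The RefSeq promoter table of build GRCm38.p6 held 8 windows for 7 of the 10 genes, each of 300 bases, from 250 before to 50 after the annotated start. The motifs searched were GCAAC, the core of the X1 box, and ATTGG, the Y box, in this order on 1 strand with 10 to 40 bases between them, on both strands. This layout was in the windows of 4 of the 7 genes, H2-Aa, H2-Eb1, H2-Oa and H2-Ob, and in 1.43% of all 32851 windows. Alone, CCAAT or its complement ATTGG was in windows of 7 of 7 genes and in 37.4% of all windows, and GCAAC or GTTGC in those of 5 of 7 genes and in 35.2% of all windows. The 60-base stretches below run 5′ to 3′ on the strand of each gene and are aligned on the ATTGG nearest to the start, and capitals mark ATTGG and, where present, GCAAC. They come from chr17:34287857-34287916 (minus strand) for H2-Aa, chr17:34305763-34305822 for H2-Eb1, chr17:34092291-34092350 for H2-Oa, chr17:34238803-34238862 for H2-Ob, chr17:34153085-34153144 for H2-DMb1 and chr17:34145114-34145173 for H2-DMb2 (plus strand).
H2-Aa: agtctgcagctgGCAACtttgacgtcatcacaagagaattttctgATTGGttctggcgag
H2-Eb1: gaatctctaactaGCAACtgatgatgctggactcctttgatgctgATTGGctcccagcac
H2-Oa: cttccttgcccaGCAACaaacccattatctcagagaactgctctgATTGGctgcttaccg
H2-Ob: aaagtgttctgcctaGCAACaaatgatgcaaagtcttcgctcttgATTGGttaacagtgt
H2-DMb1: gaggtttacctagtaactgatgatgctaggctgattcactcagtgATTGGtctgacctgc
H2-DMb2: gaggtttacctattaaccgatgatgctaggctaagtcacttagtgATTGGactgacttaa
In these stretches ATTGG began 43 to 90 bases before the annotated start, and GCAAC, where present, lay 25 to 28 bases upstream of it. The stretch of H2-DMa is not shown. It came from 1 of the H2-DMa windows, where ATTGG lay farther away, 198 bases before the start, and GCAAC was not in the stretch. The other H2-DMa window held no ATTGG. The window starts of H2-DMa and H2-DMb2 lie inside the gene ranges given below, not at their ends. The letters GCAAC are not in the stretches of the DMb pair, which says nothing of what binds there. A match describes the sequence and is not a binding site.

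All libraries had 17242921 to 17825135 reads. Kdr, the targeted gene, fell to 10.4 ± 0.732 CPM in lecko skin, against 34.2 ± 3.81 CPM in control skin (SD, n = 3 each; CPM are read counts relative to a library size scaled by TMM). Its log2 fold change was -1.72, with a Benjamini-Hochberg adjusted p of 0.00026 by edgeR's quasi-likelihood test. Over 4 Y-linked genes, lecko 1 to 3 and control 1 had 0.226 to 1.19 CPM, and controls 2 and 3 had 245.6 and 260.6 CPM, so that control 1 alone matches the lecko libraries in sex. Genotype and sex therefore partly coincide, and values for control 1 are given beside the results. The keratins Krt5, Krt14, Krt1 and Krt10 and Trp63 summed to 22300 to 23477 CPM in lecko and 21892 to 25246 CPM in control skin, which fits the label skin. The labels do not say which animal or litter gave each library, so a p-value here rests on the spread among 6 libraries, part of which may be technical.

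No class II gene passed the threshold, an adjusted p of 0.05 over all 14856 genes tested, by edgeR's quasi-likelihood test, in either direction. In that test 3 genes passed, 0.0202% of those tested: 2 were higher in lecko skin, 0.0135%, and 1 was lower, 0.00673%. All 10 class II genes passed the filter on low counts, and their mean was higher in lecko skin for 10 of 10, where 52% of all genes tested were higher. Their median difference in mean log2 CPM, lecko minus control, was 0.35, beside a median of 0.01 over all genes tested. At an unadjusted p under 0.05, 5 of the 10 were higher (Cd74, H2-DMa, H2-DMb1, H2-DMb2 and Ciita), where 4.89% of all genes were higher and 8.56% passed in either direction. This count was 8 without control 2, but 2 without control 1, control 3, lecko 1 or lecko 3 (each left out alone) and 1, Ciita, when sex was added to the model. The median was 0.20 without control 3. The 10 genes are read from the same 6 libraries, so they are not 10 independent observations.

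**Figure D1:**
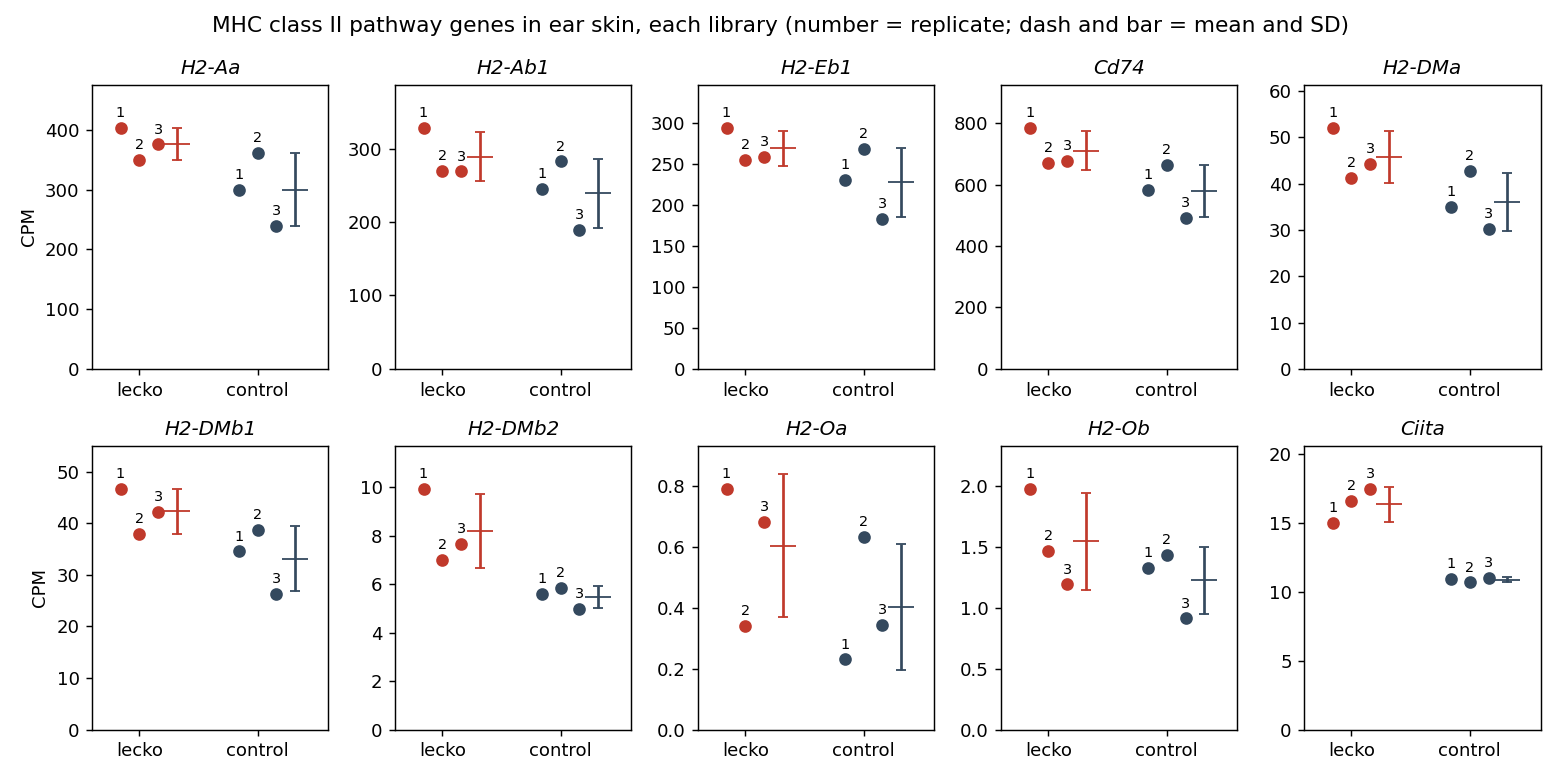
CPM of the 10 class II pathway genes in each library of lecko (red) and control (dark) ear skin, with replicate numbers above the points and the mean and SD beside them. Ciita ranges from 15.01 to 17.5 CPM in lecko and from 10.7 to 11.02 CPM in control libraries, while H2-Aa, H2-Ab1, H2-Eb1, H2-DMa and H2-DMb1 of control 2 lie among the lecko values.

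The classical chains, which form the peptide-binding dimers, are encoded side by side on chromosome 17. H2-Aa, the alpha chain of the I-A molecule, lies from 34282744 to 34287823 in GRCm38.p6. It gave 403, 349 and 376 CPM in lecko 1, 2 and 3, against 299, 361 and 239 CPM in control 1, 2 and 3. Control 2 lay above lecko 2, so the groups overlapped, while controls 1 and 3 lay below every lecko library. The log2 fold change of H2-Aa was 0.33 (SE 0.14, 95% interval -0.01 to 0.67), with an adjusted p of 0.592 by edgeR's quasi-likelihood test. H2-Ab1, the beta chain of I-A (34263227 to 34269418), had 328, 269.96 and 269 CPM in the lecko libraries and 245, 283 and 189 CPM in the controls. Control 2 again lay above lecko 2 and lecko 3, and the log2 fold change was 0.27 (SE 0.15; adjusted p = 0.664 by edgeR). H2-Eb1, the beta chain of the I-E molecule (34305867 to 34316674), had 293, 254 and 258 CPM in the lecko libraries and 230.1, 268 and 183 CPM in the controls. Its log2 fold change of 0.24 (SE 0.14; adjusted p = 0.657 by edgeR) was the smallest of the 10. For all 3 chains the 95% interval included 0, and its upper end was 0.67, 0.64 and 0.56 on the log2 scale. Without control 3 the log2 fold changes were 0.19 for H2-Aa, 0.13 for H2-Ab1 and 0.11 for H2-Eb1. H2-Ab1 was at 0.16 without lecko 1, and H2-Eb1 at 0.37 without control 2.

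The partner chain of H2-Eb1 was almost not read. The annotated pseudogene H2-Ea-ps had 1 read in lecko 1 and 0 in lecko 2, lecko 3 and the 3 controls. In mice of the b haplotype, such as C57BL/6, the E alpha gene is defective and no I-E dimer reaches the surface. H2-Eb2, a further class II beta gene, had 10, 5 and 6 reads in lecko skin against 1, 7 and 2 reads in control skin, too few to compare. Both genes are outside the 10 and were named after their values were seen.

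Cd74, the invariant chain, was the most abundant of the set and lies on chromosome 18 from 60803849 to 60812652. It reached 784, 669.7 and 677 CPM in lecko 1, 2 and 3, against 583, 663 and 492 CPM in control 1, 2 and 3. The groups did not overlap, although lecko 2 and control 2 differed by less than the spread within either group. Its log2 fold change was 0.29 (SE 0.11, 95% interval 0.03 to 0.55; unadjusted p = 0.031, adjusted p = 0.544 by edgeR), and it was 0.19 without control 3. The groups of 3 of the 10 genes, Cd74, H2-DMb2 and Ciita, did not overlap, with lecko higher, where 7.37% of all genes tested had this pattern and 7.23% the opposite one, which 0 of the 10 had. Relative to H2-Ab1 in the same library, a ratio that no scaling can move, the log2 read ratio of Cd74 was 1.26, 1.31 and 1.33 in lecko skin and 1.25, 1.23 and 1.38 in control skin. The groups overlapped in this ratio, which differed by less than the spread between libraries.

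The DM genes encode the dimer that loads peptide. H2-DMa (chromosome 17, 34119693 to 34139101) had 52.0, 41.2 and 44.2 CPM in lecko skin, against 34.9, 42.8 and 30.3 CPM in control skin. Control 2 lay above lecko 2, and the log2 fold change was 0.35 (SE 0.14; unadjusted p = 0.0376, adjusted p = 0.553 by edgeR). H2-DMb1 (34153191 to 34160229) had 46.6, 37.9 and 42.2 CPM in lecko skin, against 34.5, 38.6 and 26.3 CPM in control skin. The order of the 6 libraries was that of H2-DMa, and the log2 fold change was also 0.35 (SE 0.14; unadjusted p = 0.0416, adjusted p = 0.562 by edgeR), or 0.21 without control 3. H2-DMb2, a second beta gene (34143229 to 34151553), had 9.93, 7.01 and 7.66 CPM in lecko skin, against 5.59, 5.86 and 4.97 CPM in control skin. All 3 lecko libraries lay above all 3 controls, and the log2 fold change of H2-DMb2 was 0.58 (SE 0.16, 95% interval 0.22 to 0.94; unadjusted p = 0.00543, adjusted p = 0.467 by edgeR).

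The DMb genes are close copies, so the division of reads between them bears on each. Their coding sequences, 783 bases each, were 95.9% identical over 783 aligned bases, with a longest identical run of 221 bases (GENCODE M21 transcripts). Of the 100-base stretches of the H2-DMb1 transcript, 13.7% also occurred in the H2-DMb2 transcript. A 120-base stretch of coding sequence with 23 differences covers coding bases 202 to 321 in both, counted from the start codon; it is shown because reads from it can be told apart, and capitals mark the bases that differ.
H2-DMb1: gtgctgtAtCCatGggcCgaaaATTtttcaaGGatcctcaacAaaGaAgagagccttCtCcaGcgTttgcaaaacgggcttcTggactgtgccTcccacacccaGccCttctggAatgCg
H2-DMb2: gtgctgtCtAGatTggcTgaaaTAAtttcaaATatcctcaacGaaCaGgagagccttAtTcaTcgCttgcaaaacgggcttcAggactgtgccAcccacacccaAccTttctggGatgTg
The deposited values of both genes were not whole in 6 of 6 libraries, yet their sum was whole in 6 of 6 (within 0.015 reads), so the fractions cancelled within this pair. The sum was 1002, 795 and 879 reads in lecko skin and 696, 774 and 547 reads in control skin. Tested as 1 row, it had a log2 fold change of 0.39 (SE 0.14; unadjusted p = 0.0258, adjusted p = 0.53 by edgeR). H2-DMb2 made up 17.6, 15.6 and 15.4% of the sum in lecko skin and 14.0, 13.2 and 15.96% in control skin. The exact 95% binomial intervals, which cover counting error only, ran from 13.0 to 20.1% over the lecko and from 10.9 to 19.2% over the control libraries, and the shares of the groups overlapped. The log2 ratio of H2-DMa to the summed DMb reads was -0.12, -0.12 and -0.17 in lecko skin and -0.20, -0.06 and -0.04 in control skin, again overlapping.

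The DO genes, which restrain DM and are known chiefly from B cells and some dendritic cells, were close to the limit of detection. H2-Oa (chromosome 17, 34092379 to 34095234) had 14, 6 and 12 reads in lecko skin against 4, 11 and 6 reads in control skin. H2-Ob (34238905 to 34245908) had 35, 26 and 21 reads in lecko skin against 23, 25 and 16 reads in control skin. Both overlapped between the groups, with log2 fold changes of 0.58 (SE 0.49) for H2-Oa and 0.33 (SE 0.29) for H2-Ob and adjusted p of 0.771 and 0.776 by edgeR. The 95% interval of H2-Oa reached from -0.53 to 1.69, so no difference between the groups was detectable at this depth, and its fold change ranged from 0.30 to 1.05 with a library left out. That of H2-Ob ranged from 0.11 without lecko 1 to 0.49 without lecko 3. In H2-Oa, 321 exonic bases overlap the antisense gene BC051537, which is not analysed here. Of the B cell markers, Ms4a1, which encodes CD20, had 2, 2 and 0 reads in lecko skin and 2, 1 and 0 reads in control skin, and the B cell factor Pax5 had 1, 0 and 1 reads in lecko skin and 0 in all 3 controls.

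Ciita, the transactivator, had the smallest p of the set and ranked 9th of 14856 genes by unadjusted p. It lies on chromosome 16 from 10480014 to 10531064 and gave 15.01, 16.6 and 17.5 CPM in lecko 1, 2 and 3, against 10.96, 10.7 and 11.02 CPM in control 1, 2 and 3. The controls, control 1 among them, were close together, and every lecko library lay above them. The log2 fold change of Ciita was 0.59 (SE 0.10, 95% interval 0.37 to 0.80), a 1.503-fold difference (interval 1.29 to 1.75), with an unadjusted p of 0.000171 and an adjusted p of 0.268 by edgeR. DESeq2 called it (adjusted p = 0.0254), among 24 genes it called higher (0.162%) and 8 lower (0.0539%), and limma-voom did not (adjusted p = 0.317). Over 17 other settings (other tools, scaling, filters, covariates and libraries left out) its log2 fold change was 0.54 to 0.64, and its adjusted p, by edgeR, DESeq2 or limma-voom as each setting used, was 0.0254 to 0.901.

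Ciita shares reads with a neighbour. Dexi lies on the opposite strand, and its exons overlap 329 of the 9535 exonic bases of all Ciita transcripts in GENCODE M21. Of the 100-base stretches of the principal Ciita transcript, 0 occurred in a transcript of another gene, on either strand. The deposited values of Ciita were not whole in 6 of 6 libraries, and Ciita plus Dexi was whole in 6 of 6, so the fractions cancelled within this pair too. Whether the counting used strand is not stated in the labels. Dexi had 439.27, 432.37 and 467.28 reads in lecko skin, against 490.72, 432.31 and 492.33 reads in control skin, which overlapped (log2 fold change -0.10, SE 0.08). Ciita itself had 265.73, 293.63 and 307.72 reads in lecko skin, against 190.28, 185.69 and 192.67 reads in control skin. The sum of both was 705, 726 and 775 reads in lecko skin and 681, 618 and 685 reads in control skin, which did not overlap, and it had a log2 fold change of 0.13 (SE 0.07; unadjusted p = 0.0966, adjusted p = 0.629 by edgeR), a test added after the values were seen. The sum holds more Dexi than Ciita reads, and how many reads were shared was not measured. H2-DMa likewise overlaps Brd2 on the opposite strand, by 360 of the 3448 exonic bases of all its transcripts. Its principal transcript also had 0 such shared stretches. Brd2 had a log2 fold change of 0.03 (SE 0.05).

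**Figure D2:**
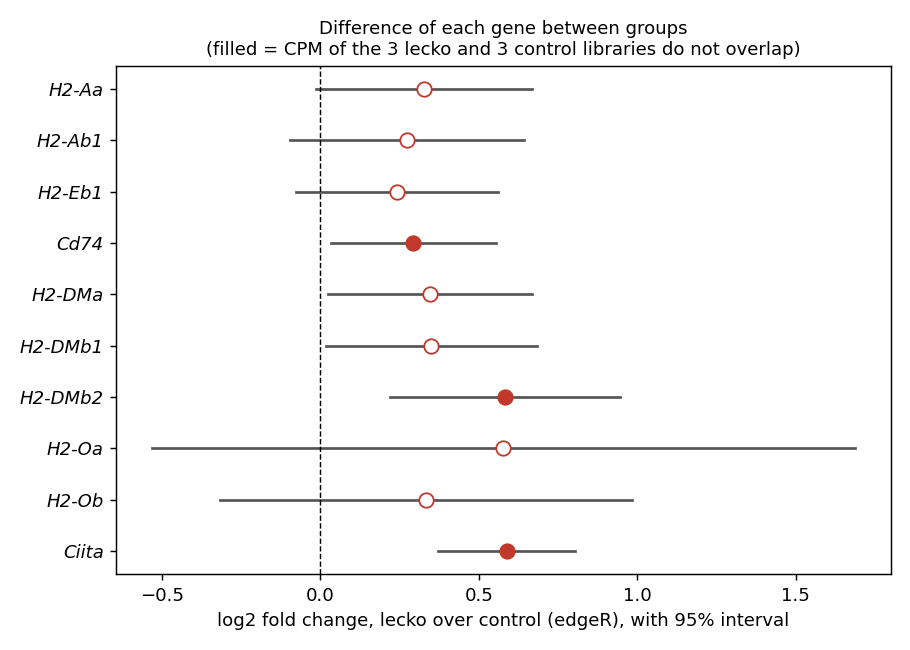
Log2 fold change of each class II pathway gene, lecko over control, with its 95% interval from edgeR's quasi-likelihood fit; the dashed line marks no difference. Points are filled where the CPM of the groups do not overlap (Cd74, H2-DMb2 and Ciita), and the interval of H2-Oa runs from -0.53 to 1.69.

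The genes differed among themselves in how they varied between libraries. Cd74, the 3 chains, H2-DMa and H2-DMb1 varied together: relative to the mean of the controls, lecko 1 stood at 1.29 to 1.44 times for these 6 genes, and control 3 at 0.79 to 0.85 times. Control 2 stood at 1.14 to 1.21 times, as did lecko 2 at 1.12 to 1.16 times. Lecko 1 was the highest library for 9 of the 10 genes and control 3 the lowest for 8. Ciita did not follow this order: lecko 3 was its highest library at 1.61 times the control mean, and lecko 1, the highest for the other 9, was the lowest of its lecko libraries at 1.38 times. Controls 2 and 3, which lay apart for the chains, were at 0.98 and 1.01 times for Ciita. The log2 ratio of Ciita to H2-Ab1 reads was -4.45, -4.02 and -3.94 in lecko skin and -4.48, -4.72 and -4.10 in control skin, which overlapped. Control 1, the sex-matched control, lay below all 3 lecko libraries for 9 of the 10 genes (28.1% of all genes tested), H2-Ob being the exception, control 3 for 9 (30%) and control 2 for 3 (24.1%).

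**Figure D3:**
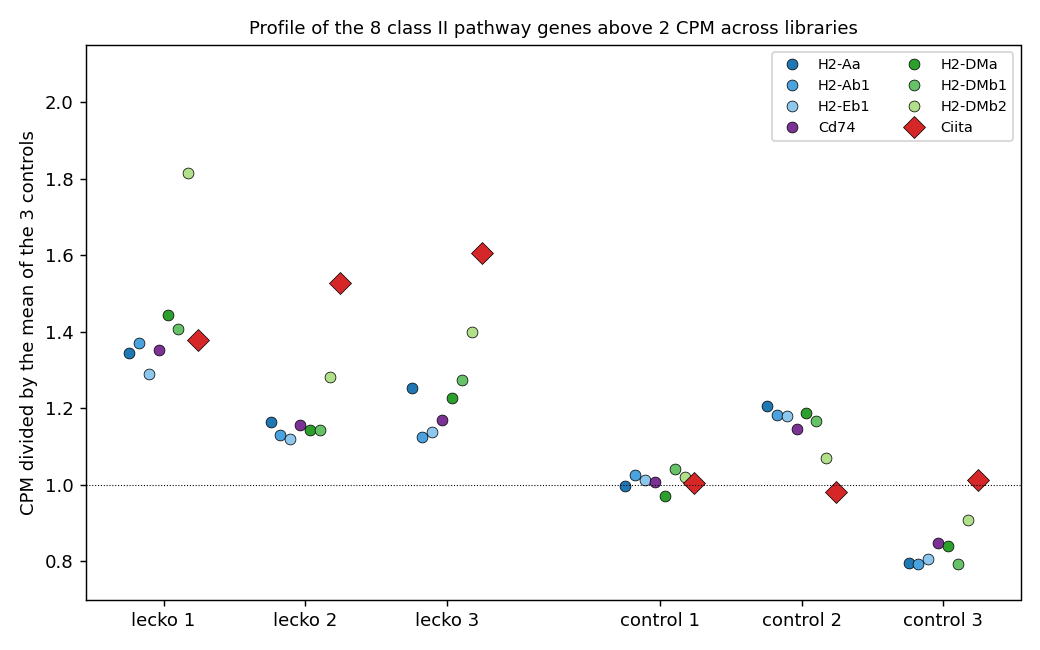
CPM of the 8 class II pathway genes above 2 CPM in each library, divided by the mean of the 3 controls (dotted line at 1). The chains, Cd74, H2-DMa and H2-DMb1 (circles) cluster within each library, with lecko 1 at 1.29 to 1.44 and control 3 at 0.79 to 0.85, while Ciita (red diamonds) stands at 1.38 to 1.61 in lecko and 0.98 to 1.01 in control libraries.

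Levels between genes were compared per length, as CPM per kilobase of the principal coding transcript in GENCODE M21. In this order Cd74 led at 504 ± 45.2 CPM per kilobase in lecko skin and 411 ± 60.9 in control skin. H2-Aa followed at 333 ± 23.8 in lecko and 265.8 ± 54.3 in control skin, H2-Ab1 at 238 ± 27.8 and 197 ± 38.8, and H2-Eb1 at 161 ± 12.8 and 136 ± 25.5 CPM per kilobase. H2-DMb1 and H2-DMa followed, at 30.1 ± 3.09 and 27.6 ± 3.35 CPM per kilobase in lecko skin and 23.6 ± 4.49 and 21.7 ± 3.82 in control skin. Within every library H2-DMb1 lay above H2-DMa. The gap was smallest in control 3, at 18.7 against 18.3 CPM per kilobase, and this order was not tested. H2-DMb2 was at 5.76 ± 1.08 in lecko and 3.84 ± 0.323 in control skin, and Ciita, with a transcript of 6007 bases, at 2.73 ± 0.209 and 1.81 ± 0.0286 CPM per kilobase. H2-Ob and H2-Oa were lowest and overlapped, at 0.579 ± 0.149 and 0.555 ± 0.216 in lecko skin and 0.459 ± 0.103 and 0.369 ± 0.191 CPM per kilobase in control skin (SD, n = 3 for each value). The order of the 10 genes by mean was the same in both groups. Together the 10 genes took 0.192, 0.166 and 0.17% of the reads in lecko skin, against 0.144, 0.165 and 0.12% in control skin.

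The factors that hold CIITA on DNA differed little between the groups. Of the 7 enhanceosome genes Rfx5, Rfxap, Rfxank, Creb1, Nfya, Nfyb and Nfyc, 0 passed either threshold by edgeR, 4 had a positive difference, and their median log2 difference was 0.00. Rfx5, whose product binds the X box, averaged 22.7 ± 1.15 CPM in lecko and 22.6 ± 0.937 CPM in control skin (SD, n = 3 each). Nfyc, a subunit of NF-Y, averaged 44.0 ± 2.47 CPM in lecko and 47.0 ± 1.15 CPM in control skin. The groups of Nfyc did not overlap, with lecko lower, as for 7.23% of all genes tested.

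Among 10 genes known to induce or drive Ciita, 4 interferon-related and myeloid factors had the smallest p. Of the 9 tested, 0 passed over all genes by edgeR, and 4 were higher at an unadjusted p under 0.05: Irf8, Irf1, Spi1 and Irf4, whose groups did not overlap. Over all genes tested, 4.89% were higher at this threshold and 7.37% did not overlap, with lecko higher. Irf8, a factor of dendritic cells and macrophages, had 9.14, 8.82 and 9.53 CPM in lecko skin and 5.94, 5.92 and 5.42 CPM in control skin (log2 fold change 0.67, SE 0.11). Like Ciita it kept the 3 controls close together, and the log2 ratio of Ciita to Irf8 overlapped, at 0.71, 0.91 and 0.87 in lecko and 0.88, 0.85 and 1.02 in control skin. Irf1, an interferon-induced activator of a Ciita promoter, had 23.7, 23.7 and 24.7 CPM in lecko skin and 20.2, 17.2 and 16.6 CPM in control skin (log2 fold change 0.42, SE 0.09). Spi1, the myeloid factor PU.1, averaged 21.2 ± 1.67 CPM in lecko and 15.8 ± 2.93 CPM in control skin, and Irf4 averaged 11.2 ± 1.16 and 7.76 ± 2.47 CPM (SD, n = 3 each). Adjusted p by edgeR was 0.315 for Irf8, 0.379 for Irf1, 0.504 for Spi1 and 0.583 for Irf4. Ifng, the cytokine interferon gamma, had 0, 2 and 2 reads in lecko and 0, 2 and 0 reads in control skin, too few to compare. The median log2 difference of the list was 0.35 and was 0.05 without control 3, 0.11 without lecko 1, 0.16 with lecko 3 left out and 0.10 when sex was added to the model.

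Of 9 endolysosomal genes 0 passed over all genes by edgeR. At an unadjusted p under 0.05, 1 was higher, the protease gene Ctsb, where 4.89% of all genes tested were. Its log2 fold change was 0.20 (SE 0.09, unadjusted p = 0.0434 and adjusted p = 0.565 by edgeR). Ctss, the protease that trims the invariant chain, had 149, 98.5 and 139 CPM in lecko skin and 86.9, 109 and 67.1 CPM in control skin, with an overlap between lecko 2 and control 2 (log2 fold change 0.55, SE 0.23; adjusted p = 0.59 by edgeR). Lgmn, an endolysosomal protease gene, had a log2 fold change of 0.20 (SE 0.09) and Ctsl 0.09 (SE 0.07). The list's median log2 difference was 0.08, but -0.02 without lecko 1, 0.01 without control 3 and 0.13 without control 2. All 3 genes of class II surface turnover had a positive difference, as did 52% of all genes tested, but that of March8 was only 0.00036. Their median log2 difference was 0.50, which is the value of March1, or 0.29 without lecko 2. March1, a ubiquitin ligase that removes class II from the surface of dendritic cells, had 15.97, 11.3 and 16.004 CPM in lecko skin and 9.40, 10.8 and 9.82 CPM in control skin. Its groups did not overlap, with lecko higher, as for 7.37% of all genes tested. The log2 fold change of March1 was 0.53 (SE 0.15, unadjusted p = 0.00622 and adjusted p = 0.470 by edgeR). Its relative March8, which is widely expressed, averaged 75.2 ± 2.50 CPM in lecko and 75.1 ± 1.24 CPM in control skin. Cd83, which opposes March1, had 8.75, 14.5 and 5.16 CPM in lecko and 6.52, 6.96 and 3.65 CPM in control skin.

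MHC class I genes, the other presentation pathway, had a different profile across libraries. Of 12 genes 0 passed over all genes and 0 reached an unadjusted p under 0.05 by edgeR, and their median log2 difference was 0.09. That median turned to -0.05 without lecko 1, -0.01 without control 3 and -0.05 when sex was added to the model. It was 0.02 without lecko 3, 0.16 without control 1 and 0.25 without lecko 2. H2-K1, a class I heavy chain, had 505, 292 and 439 CPM in lecko skin and 453, 436 and 346 CPM in control skin. Its lowest library was lecko 2, a library in which the class II chains were close to their values in lecko 3. Nlrc5, the class I counterpart of Ciita, had 37.8, 19.2 and 41.6 CPM in lecko skin and 34.5, 28.7 and 22.6 CPM in control skin, with a log2 fold change of 0.20 (SE 0.33). Psmb9, Psmb10 and Psmb8, subunits of the immunoproteasome, had log2 fold changes of 0.59 (SE 0.33), 0.19 (SE 0.13) and 0.31 (SE 0.22). The mean log2 CPM of the class II genes minus that of the class I genes was -1.16, -0.85 and -1.25 in lecko skin and -1.55, -1.20 and -1.31 in control skin, which overlapped. H2-K1 and H2-D1 are similar to other class I genes, so the division of reads among them bears on each value. Of 5 tested costimulatory genes on presenting cells 2 were higher at an unadjusted p under 0.05, where 4.89% of all genes were: Icosl, a ligand of activated T cells (log2 fold change 0.44, SE 0.10; adjusted p = 0.379 by edgeR), and Cd274, which encodes PD-L1 (0.34, SE 0.13; adjusted p = 0.541 by edgeR).

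Most markers of leukocytes, both of cells that carry class II and of the T cells it is shown to, also had higher means in lecko skin. All 10 pan-leukocyte markers had a positive difference, where 52% of all genes had one, 7 of them with p below 0.05 before adjustment, where 4.89% of all genes were higher, and 0 after it by edgeR, and their summed level was 467 to 597 CPM in lecko and 329 to 459 CPM in control skin. These shares over all genes are also those for the marker lists that follow. Of 10 macrophage and monocyte markers 9 were positive, 4 at an unadjusted p under 0.05 (Ccr2, Fcgr1, Cd68 and Mrc1), with a sum of 699 to 871 CPM in lecko and 438 to 730.3 CPM in control skin. Ccr2, the receptor by which monocytes and some dendritic cells leave the blood, had 38.2, 30.5 and 41.8 CPM in lecko skin and 16.7, 22.8 and 19.8 CPM in control skin (log2 fold change 0.90, SE 0.15; adjusted p = 0.331 by edgeR). Of 12 dendritic and Langerhans cell markers 11 were positive, 2 at an unadjusted p under 0.05 (Siglech and Clec10a), with a sum of 224 to 243 CPM in lecko and 187 to 221 CPM in control skin. Cd207, the Langerhans cell lectin, averaged 30.2 ± 4.26 CPM in lecko and 28.6 ± 6.09 CPM in control skin, and Epcam, shared with keratinocytes, 96.5 ± 5.00 and 95.9 ± 6.99 CPM. Of 4 tested T cell markers 4 were positive, 1 at an unadjusted p under 0.05 (Cd4), and the list summed to 26.6 to 36.5 CPM in lecko and 17.1 to 28.2 CPM in control skin. No marker of these lists was at 0 in every library. In bulk skin, more cells of a type and more RNA per cell cannot be told apart, and the part of these cells in the class II values was not tested.

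Set against leukocyte genes in the same library, most class II genes lay lower in lecko skin. Cd74 over Ptprc, which encodes CD45, had log2 read ratios of 3.65, 3.86 and 3.65 in lecko skin and 4.02, 4.03 and 4.02 in control skin. H2-Ab1 over Ptprc had 2.39, 2.54 and 2.32 in lecko and 2.77, 2.80 and 2.65 in control skin. Over Ptprc, 6 of the 10 genes lay lower in lecko skin without overlap, as did 75% of all genes tested, and 0 lay higher, as did 0.114%. Relative to the mean of the 10 pan-leukocyte markers, which themselves were higher in lecko skin, the same 6 genes (the 3 chains, Cd74, H2-DMa and H2-DMb1) lay lower without overlap, as did 55.1% of all genes tested, and 0 lay higher, as did 0.182%. These shares are near those over all genes and show nothing particular to class II. Ciita relative to the same mean was at -1.49, -0.96 and -0.98 in lecko and -1.22, -1.52 and -0.93 in control skin, and it overlapped. Relative to the mean of the dendritic and Langerhans cell markers, the mean of the class II genes was 2.55, 2.59 and 2.51 in lecko and 2.69, 2.59 and 2.44 in control skin on the log2 scale, which also overlapped.

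Most endothelial markers had lower means in lecko skin. Of 7 endothelial markers 6 were negative, 5 at an unadjusted p under 0.05 (3.68% of all genes were lower at this threshold), and they summed to 292 to 312 CPM in lecko and 325 to 353 CPM in control skin. Of 7 lymphatic endothelial markers 5 were negative, 2 at an unadjusted p under 0.05 (Ccl21a and Reln), with a sum of 311 to 338 CPM in lecko and 359 to 409 CPM in control skin. Ccl21a made up a large part of this sum, at 96.0 ± 17.5 CPM in lecko and 143.7 ± 13.6 CPM in control skin. Prox1 and Pdpn went the other way, with log2 differences of 0.18 and 0.21, so the sum does not stand for the list as a whole. No marker of either list passed over all genes by edgeR. When sex was added to the model the median log2 difference was -0.12 in place of -0.24 for the endothelial and -0.03 in place of -0.11 for the lymphatic list. Their part in the class II values was not tested.

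**Figure D4:**
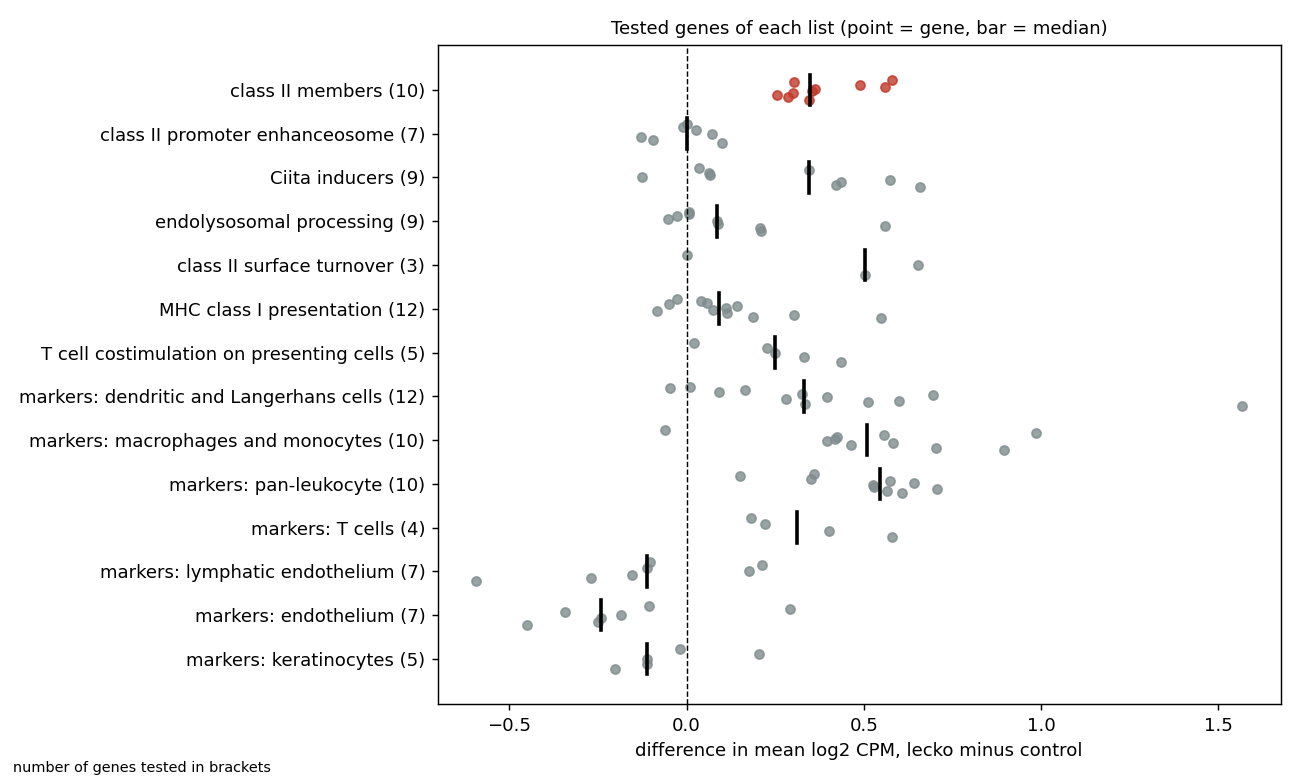
Difference in mean log2 CPM, lecko minus control, of each tested gene in the class II set (red) and in the related lists (grey), with the median of each list as a black bar and the dashed line at no difference. The class II genes lie between 0.26 and 0.58, the promoter-binding factors have a median of 0.00, and the pan-leukocyte markers a median of 0.55.

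Genes outside the set whose log2 CPM most followed the mean of the class II genes over the 6 libraries were Pamr1 (Pearson r = 0.999), Selplg (0.996), Snx29 (0.995), Sp140 (0.993), Prelp (0.993), Laptm5 (0.991), Lrrc25 (0.991) and Capza2 (0.991). Selplg encodes the selectin ligand PSGL-1 of leukocytes, Laptm5 a lysosomal protein of blood cells that is also among the pan-leukocyte markers, and Prelp a matrix proteoglycan. Of 12766 eligible genes, 193 had r of 0.95 or more. The mean was followed closely by its own members H2-DMa (r = 0.997) and Cd74 (0.989), and least by Ciita (0.65). These coefficients describe likeness across 6 libraries that share a grouping, and no test was made of them.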

How the data were processed

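Polyadenylated RNA of ear skin was measured in 3 lecko and 3 control libraries, grouped by their titles. The authors deposited 1 table of estimated counts per gene, not normalized, of which 9.6 to 10.5% per library were not whole. RSEM 1.3.1, Bowtie2 2.4.5, HISAT2 2.2.1 and the build GRCm38.p6 are listed in the submitters' processing notes, without roles. The annotation and the strand setting are not stated there.

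After rounding the estimated counts, filterByExpr (count of at least 10, total of at least 15) left 14856 genes and removed 3626, and libraries were scaled by TMM. The main comparison used group as the only term in the robust quasi-likelihood fit of edgeR 4.0.16 under R 4.3.3, with Benjamini-Hochberg adjustment over all genes tested, called at 0.05. A prior count of 2 went into log2 CPM, and read ratios had 0.5 added to each count. Alternatives used DESeq2 1.42.0, limma-voom 3.58.1, other scaling and filters, no robust estimation, a replicate block, sex from Y-linked counts (threshold 10 CPM) and each library left out. Between libraries of the same group, counts varied 8.14 to 16.8 times as much as sampling alone allows, so no library was a repeat deposit of another. The fit was checked on simulated counts that held no sex effect and no shared library effects, so this check does not bear on either.

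The genes, lists and tests were chosen with earlier results of these data known. The text names the 10 genes, from each related list up to 4 genes with the smallest p and others as examples of their role, and the 8 genes most like the mean of the set (mean log2 CPM of at least 1, unnamed gene models and sex-linked genes left out). Rfx5, Ifng, Ms4a1, Pax5, H2-K1, Nlrc5, March8, Cd83, Cd207, Epcam, Dexi, Brd2, H2-Ea-ps and H2-Eb2 were named as such examples after their values were seen. Some listed genes are not reported here.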

Additional observations from a re-analysis of the deposited data

How the results depend on the processing

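All 10 class II genes kept a positive log2 fold change under each of 17 other settings that tested them (168 values), and 1 of these values was called: Ciita by DESeq2, which called 1 class II gene, 24 genes higher and 8 lower in all. The median log2 difference of the class II genes was 0.26 to 0.41 with a lecko library left out and 0.20 to 0.48 over all libraries left out in turn, 0.31 with sex as a covariate and 0.30 when controls 2 and 3, the Y-high ones, were left out, a fit in which the lone control is assumed to vary like the lecko libraries. With a library left out, 2 to 36 genes were called higher (36 without control 2, 4 without lecko 2) and 1 to 5 lower (5 without control 1, 2 without lecko 2); 0 class II genes were called. The count of class II genes at an unadjusted p under 0.05 moved between 1 and 8 over these alternatives. The cause was not tested.

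The labels do not say whether the numbers pair the libraries. Deviations from the group means correlated at 0.34, -0.07 and 0.04 between libraries of number 1, 2 and 3. Between libraries of different number they correlated at -0.28 to 0.23. With 3 libraries in each group these values cannot decide whether the numbers mark pairs. With a replicate block the median of the class II genes was 0.35, 0 of them were called, and 5 had an unadjusted p under 0.05. Scaling by DESeq2 size factors, upper-quartile factors or library size alone gave medians of 0.34 to 0.35. With at least 1 CPM required in all 6 libraries, 8 of the 10 genes were tested, without H2-Oa and H2-Ob, whose 4 to 35 reads limit any comparison.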
